A study of Homo sapiens with 18 samples.

Results

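HT29 cells come from a human colorectal adenocarcinoma, and the HTOXAR3 subline was derived from them by prolonged exposure to oxaliplatin (OXA) and resists it. The comparison described here is between the lines after 24 h with OXA plus Curcumin. Its members were chosen by the group named in the sample titles, 3 arrays of HTOXAR3 and 3 arrays of HT29, which are 6 of the 18 arrays of the series. The other 12 arrays, 3 of each line without drug and 3 of each line after OXA, serve to show which differences between the lines were also there in those states. HT29 received 10 µM OXA, HTOXAR3 received 30 µM, and the Curcumin dose was 10 µM in either line, so the line and the dose of OXA cannot be told apart in either treated state. HTOXAR3 is a single derived subline, and the replicates of a group are separate treatments of the same line.

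OXA is a platinum drug that forms adducts between neighbouring bases of DNA, which are removed mainly by nucleotide excision repair. Curcumin is a plant polyphenol known, among other actions, as an inhibitor of NF-κB, a family of transcription factors held in the cytoplasm by IκB proteins and released when these are degraded. *CXCL1*, *CXCL2*, *CXCL3* and *CXCL8* encode CXC chemokines, which are secreted ligands. These genes are textbook targets of NF-κB, and their products share the receptor CXCR2. Colon epithelium renews itself from stem cells kept by Wnt signalling, and its absorptive cells express structural genes such as *VIL1* under factors such as CDX2.

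Between 56.9% and 63.6% of the transcript spots of the 6 arrays were well above background. The 6 arrays correlated at 0.986 to 0.992 within a line and at 0.978 to 0.987 between the lines. All 11 colon epithelial markers examined were well above background on the 3 HT29 arrays and 9 on the 3 HTOXAR3 arrays. The exceptions in HTOXAR3 were *CDX2*, which was above background on 0 of 3 arrays, and *CEACAM5*, on 1 of 3. The log2 of the summed epithelial markers was 19.74 on each HTOXAR3 array and 19.66 to 19.75 in HT29. Of 8 fibroblast or mesenchymal markers, 5 were above background on none of the 6 arrays, and the log2 of their sum was 6.95 to 7.27 in HTOXAR3 and 7.22 to 7.92 in HT29. Of that list, *LUM* was called, lower in HTOXAR3. Leukocyte markers (log2 of the sum 11.06 to 11.13 in HTOXAR3 and 10.74 to 11.21 in HT29) and endothelial markers (8.19 to 8.30 and 8.32 to 8.79) held no called gene. The part of these markers in the results was not tested.

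The first question was how far the lines differ while both are under the combination. Values are log2 of the normalized fluorescence intensity of a probe, so that a difference of 1 is a doubling, and a gene was called at a Benjamini and Yekutieli adjusted p below 0.05 with a fold change above 1.2. Of 36203 gene names tested, 5023 (13.9%) were called, 2516 (6.95%) higher and 2507 (6.92%) lower in HTOXAR3. The even split goes with quantile normalization, since scaling to the 75th percentile gave 2883 higher and 2112 lower, and the processed signal scaled in that way 2977 and 2399. The median size of the called differences was 0.62. The difference was more than 2-fold for 1165 names, more than 4-fold for 243 and more than 8-fold for 78. The values of the 3 arrays of one line did not overlap those of the other for 35.9% of all names. Among the 20570 names well above background on all arrays of at least one line, 24.2% were called. The arrays had been hybridised on 2 slides, each holding both lines, and the sign was the same within slide 2 for 5020 of the 5023 called genes and within slide 3 for all 5023.

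Among genes well above background on all 6 arrays, those higher in HTOXAR3 were led by *DMKN*, which encodes the secreted epidermal protein dermokine. *DMKN* read 12.89, 12.98 and 12.85 in HTOXAR3 and 6.05, 6.26 and 5.99 in HT29. The lines stood 6.81 ± 0.11 (SE) apart, 112-fold, with an adjusted p of 4.15e-13. Another 2 *DMKN* probes were called at 5.26 and 3.22. Next came genes of the cancer-testis antigens, proteins that normal adults make mainly in germ cells. *MAGEA6* read 14.20, 14.16 and 14.21 in HTOXAR3 against 8.84, 8.94 and 8.81 in HT29, a difference of 5.33 ± 0.07 (adjusted p = 5.46e-14). *MAGEA2B* differed by 5.12, *MAGEA12* by 5.05, *PAGE1* by 4.72, *CSAG3* by 4.71, *CSAG1* by 4.71 and *CSAG4* by 4.49, and the arrays of the lines did not overlap for any of them. Further probes above background on all 6 arrays gave smaller differences, called in the same direction, for *CSAG3* (1.47) and *MAGEA6* (3.85). *MAGEA4* was well above background in HTOXAR3 only, at 9.05, 8.95 and 8.96, and was at least 23.9-fold higher there. Genes of the MAGEA and CSAG families are near-identical copies, so their probes may read more than one member. The probes used for *CSAG1* and *CSAG4* match at 35 of 60 bases at their best offset, and those of *MAGEA6*, *MAGEA2B* and *MAGEA12* at 19 to 21. Of the cancer-testis list as a whole, 7 of 19 genes with a probe (36.8%) were called higher and 0 lower, against 6.95% and 6.92% of all names. No member was lower at an unadjusted p below 0.05 either, and with the Benjamini-Hochberg adjustment the limma counts were also 7 and 0. Most of this family lies on chromosome X.

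The promoters of *MAGEA6*, *MAGEA12* and *CSAG1* are shown because these genes were high together in HTOXAR3 and their family is known for silencing by DNA methylation at CpG dinucleotides. The windows run from 250 bases before to 50 bases after the start site in RefSeq, build GRCh38.p14, with each CpG in capitals.
MAGEA6, chrX:152769640-152769939, minus strand: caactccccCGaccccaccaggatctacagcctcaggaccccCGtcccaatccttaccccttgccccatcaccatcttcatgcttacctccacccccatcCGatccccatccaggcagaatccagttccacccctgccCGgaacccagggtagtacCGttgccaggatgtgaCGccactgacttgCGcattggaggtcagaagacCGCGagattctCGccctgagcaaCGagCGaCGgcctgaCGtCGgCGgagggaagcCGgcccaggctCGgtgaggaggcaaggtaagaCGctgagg
MAGEA12, chrX:152733612-152733911, plus strand: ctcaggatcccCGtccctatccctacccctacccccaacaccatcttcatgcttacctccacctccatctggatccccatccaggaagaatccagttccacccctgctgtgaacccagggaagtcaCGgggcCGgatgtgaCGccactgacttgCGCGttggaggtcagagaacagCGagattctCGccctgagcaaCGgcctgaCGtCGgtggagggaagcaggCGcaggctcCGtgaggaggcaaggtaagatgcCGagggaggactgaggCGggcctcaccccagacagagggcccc
CSAG1, chrX:152733672-152733971, minus strand: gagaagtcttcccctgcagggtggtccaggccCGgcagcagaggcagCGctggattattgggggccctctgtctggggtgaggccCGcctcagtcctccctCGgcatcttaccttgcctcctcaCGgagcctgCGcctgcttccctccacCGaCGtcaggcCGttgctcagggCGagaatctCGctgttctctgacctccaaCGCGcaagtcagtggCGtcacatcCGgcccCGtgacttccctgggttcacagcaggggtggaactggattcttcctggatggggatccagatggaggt
The windows hold 19, 15 and 16 CpG dinucleotides, against a median of 14 over the 35116 promoters of the table. The other window of *MAGEA12*, upstream of the one shown, holds 9. The windows shown for *MAGEA12* and *CSAG1* lie on opposite strands and share 240 bases. Methylation was not measured in these samples.

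Other leading rises were of unrelated function. *TOX2*, which encodes a nuclear protein with an HMG box, read 11.89, 11.95 and 11.87 in HTOXAR3 and 6.77, 7.12 and 7.11 in HT29. *MGP*, which encodes matrix Gla protein, an inhibitor of calcification, differed by 4.56 ± 0.17, *CACNG6*, a gamma subunit of calcium channels, by 4.37 ± 0.11, and *NMU*, the neuropeptide neuromedin U, by 3.71 ± 0.08. *CLEC3A*, a C-type lectin, read 11.45, 11.47 and 11.18 in HTOXAR3 and was not well above background on any HT29 array, and it was at least 119-fold higher in HTOXAR3. *TM4SF18*, a transmembrane 4 family member, was at least 37.7-fold higher, and *CALD1*, the actin-binding protein caldesmon, at least 14.7-fold. *APOBEC3C* and *APOBEC3F*, cytidine deaminases that restrict retroviruses, were at least 21.4-fold and 12.5-fold higher on the probes used, which match at 50 of 60 bases, so one transcript may be read by both. Another *APOBEC3F* probe, above background in both lines, was called at 1.37, so the bound holds for one probe and not for the gene.

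Among genes above background on all 6 arrays, those lower in HTOXAR3 were led by *TM4SF4*, another transmembrane 4 family member. It read 6.30, 6.59 and 6.34 in HTOXAR3 and 13.61, 13.74 and 13.89 in HT29, a difference of -7.34 ± 0.09, or 162-fold (adjusted p = 2.38e-14). Its probe lies at chr3:149216588-149216647 (GRCh37), and that of *TM4SF18*, which differed in the opposite direction, at chr3:149040053-149040112. *KBTBD11* differed by -6.23, *GRAMD1B* by -5.41 and *LIMS2*, a focal adhesion adaptor, by -4.79 (another probe by -2.50). *AUTS2* differed by -5.78 on the probe used, while another probe above background on all 6 arrays differed by 0.22 ± 0.25, so the result is that of one probe. *FGF19*, a growth factor that signals bile acid uptake from the gut, read 5.16, 5.87 and 5.43 in HTOXAR3 and 9.77, 10.09 and 10.64 in HT29. *IGFBP2*, which binds insulin-like growth factors, differed by -4.10, and its relative *IGFBP7*, not above background in HTOXAR3, was at least 8.49-fold lower. *RAMP1*, a receptor activity-modifying protein, differed by -4.21, the lectin *LGALS2* by -4.57 (another probe, above background on all 6 arrays, by -0.98), *POU2AF2*, a coactivator of tuft cells, by -3.98 and the kallikrein *KLK11* by -3.75. Genes with only a bound also included *ADRA2A*, the alpha-2A adrenergic receptor (at least 9.27-fold lower), *MGAT3*, a glycosyltransferase (at least 8.91-fold), *C2orf72* (at least 7.10-fold on the probe used, with another probe called at -1.64) and *UCHL1*, a ubiquitin hydrolase (at least 6.77-fold).

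**Figure D1:**
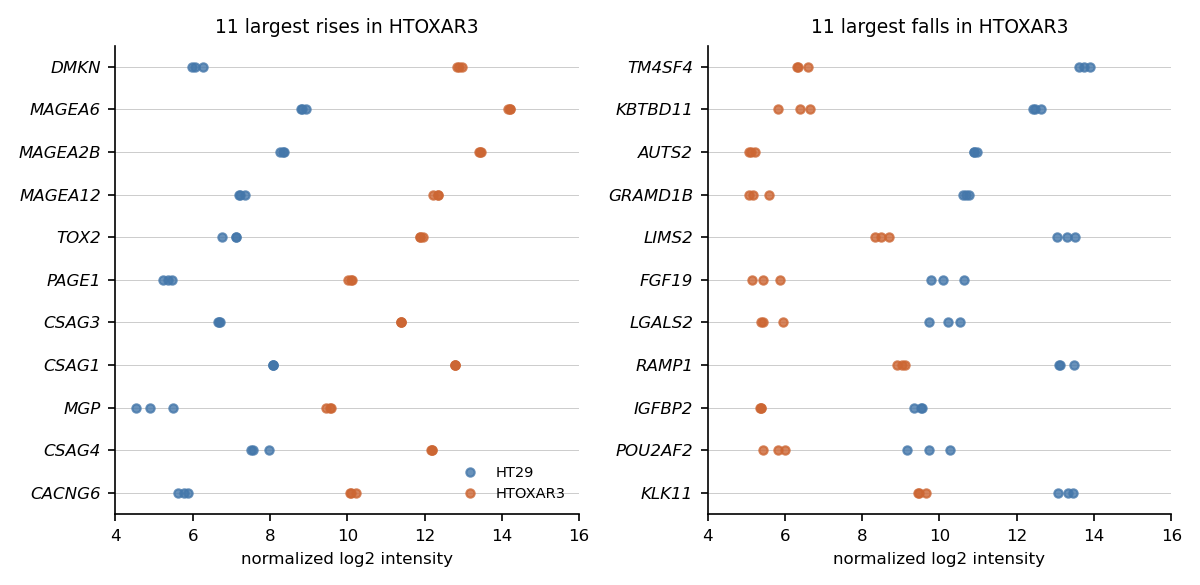
Normalized log2 intensity of the 11 largest rises and the 11 largest falls in HTOXAR3 among called genes that the scanner software put well above background on each of the 6 arrays. Each point is 1 array after OXA plus Curcumin, 3 per line, and the arrays of the lines do not overlap for any of the 22 genes.

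Gene lists were described by their counts against the share of all names. Of the 32 lists, 30 had a larger share called than the 13.9% of all names, and in every list most members were well above background. Among names well above background on all arrays of at least one line (detected names), 24.2% were called. Of those placed on chromosomes, 12.1% were higher and 12.1% lower. A list near these shares does not stand out by its count. The list with the highest share called was that of aldo-keto reductases and aldehyde dehydrogenases, which reduce or oxidise reactive carbonyls. Of its 25 genes with a probe, 14 were lower and 3 higher in HTOXAR3, 68.0% against 13.9% of all names, and the median difference was -0.69 against 0.01 over all names. *AKR1B10* read 12.44, 12.64 and 12.41 in HTOXAR3 and 15.08, 15.17 and 14.99 in HT29, a difference of -2.58 ± 0.10 (adjusted p = 2.72e-09). *AKR1B15* differed by -2.55 and *AKR1B1* by -2.38, and reads of these close relatives may not be separate. *ALDH3A1* differed by -2.36 ± 0.11. The list's direction was the same without drug (12 lower, 2 higher) and after OXA (13 lower, 4 higher), and 13 members were called in one direction in all 3 states.

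Wnt targets and intestinal stem cell genes came next, with 10 of 23 lower and 2 higher (52.2%) and a median of -0.46. *ASCL2*, a transcription factor of intestinal stem cells, read 8.49, 8.70 and 8.67 in HTOXAR3 and 11.64, 11.84 and 12.10 in HT29. It differed by -3.24 ± 0.11 (adjusted p = 4.96e-10), and by -3.37 without drug and -3.20 after OXA. *LGR5*, the stem cell receptor for R-spondins, differed by -2.37, *NKD1*, an inhibitor of the pathway, by -1.79 and *SP5*, a target of it, by -1.64. Of the 12 called members, 10 were called in one direction in all 3 states.

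Intestinal lineage factors and differentiation markers held 8 lower and 1 higher of 39 (23.1% called, against 24.2% of detected names). Of the members, 15 were not well above background on all 3 arrays of either line. *LGALS4*, a lectin of absorptive cells, differed by -2.73 ± 0.07, and *VIL1*, which encodes the microvillus protein villin, by -2.43 ± 0.07. *DDC*, which makes dopamine and serotonin from their precursors, was at least 27.2-fold lower. *CDX2*, not well above background on any HTOXAR3 array, was not called (adjusted p = 0.0795). All 9 called members were called in the same direction in the other states. Among mucins and trefoil factors, *TFF3* differed by -2.61 and *AGR2*, a disulfide isomerase of secretory cells, by -1.08, while *TFF2* was higher by 1.61. Of 2 further *TFF3* probes, one was called at -1.99 and the other differed by -0.79 and was not called. Keratins went one way, with 6 of 17 higher (35.3%) and 0 lower, and 0 were lower at an unadjusted p below 0.05 or with the Benjamini-Hochberg adjustment. *KRT13* read 12.63, 12.56 and 12.57 in HTOXAR3 and 10.43, 10.13 and 10.27 in HT29, and *KRT16*, *KRT14* and *KRT17* differed by 1.38, 0.85 and 0.75. The call of *KRT17* was lost without several single arrays. Of 31 epithelial junction genes, 7 were lower (22.6%), among them *CLDN2* (-1.41), *CLDN1* (-0.69) and *TJP3* (-0.60). Another 4 were higher (12.9%, near the 12.1% of detected names), among them the P-cadherin gene *CDH3* (1.32).

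**Figure D2:**
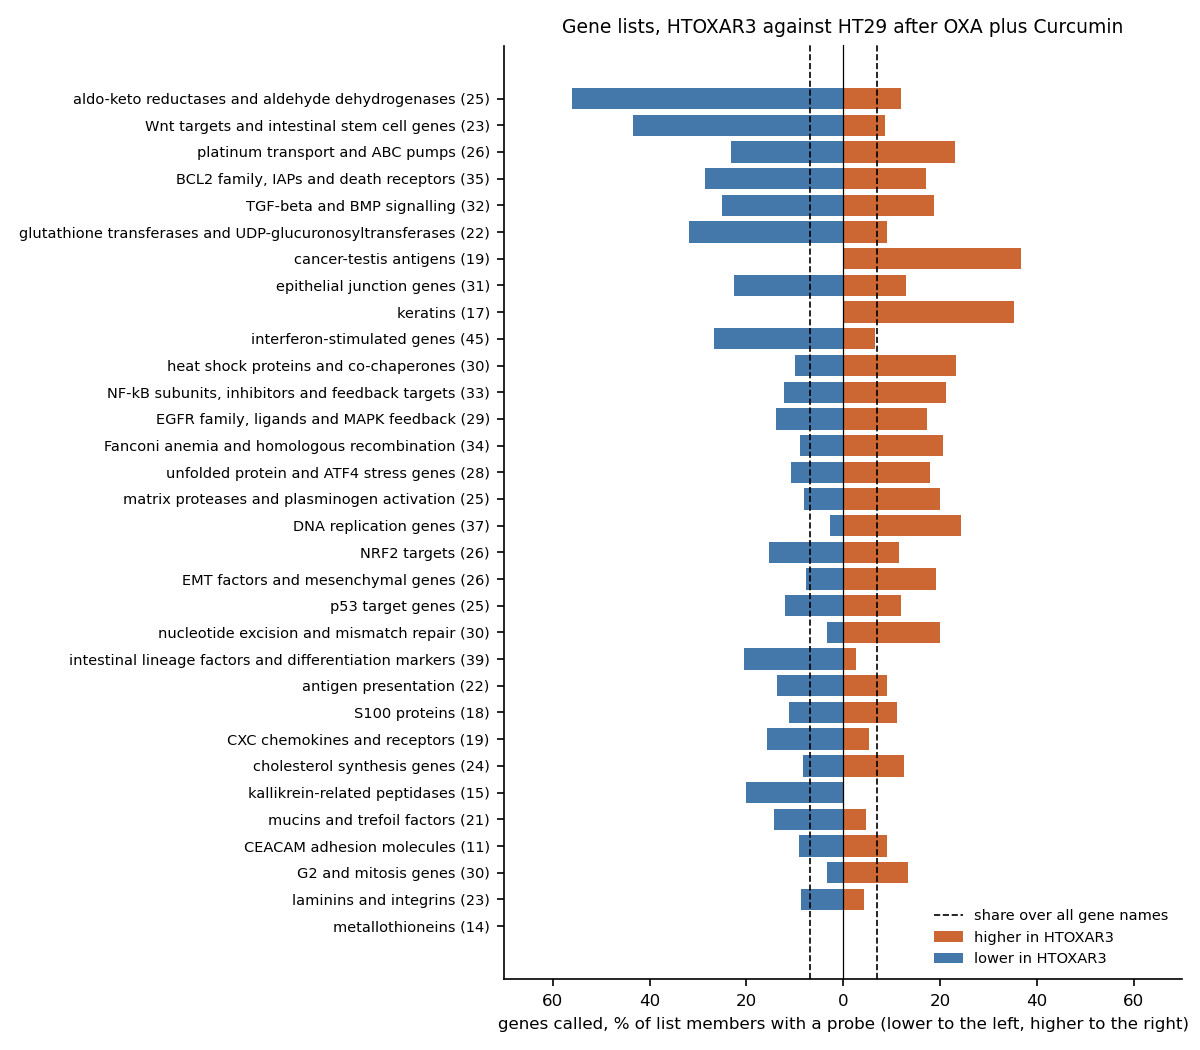
Share of each gene list called higher (right) or lower (left) in HTOXAR3 after OXA plus Curcumin, as % of members with a probe, with that number in brackets. Dashed lines mark the share over all names, 6.95% higher and 6.92% lower, and the longest bars are the 14 lower genes of 25 aldo-keto reductases and aldehyde dehydrogenases and the 10 lower of 23 Wnt and stem cell genes. Of detected names placed on chromosomes, 12.1% were called higher and 12.1% lower.

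Lists tied to platinum drugs went in both directions. Platinum transporters and ABC pumps had 6 higher and 6 lower of 26 (46.2% called, against 24.2% of detected names). The lower ones included *ABCC6* (-1.71), *ABCB4* (-1.48), *ABCC4* (-1.34) and *SLC47A2*, an organic cation exporter that was not above background in HTOXAR3 and at least 2.33-fold lower. Of 3 further *ABCC6* probes, 2 were called at -1.60 and -1.31 and one differed by -0.25 and was not called. *ABCC3* differed by -1.08, and another of its probes by -0.28, which was not called. Nucleotide excision and mismatch repair had 6 higher and 1 lower of 30 (23.3% called, near the 24.2% of detected names). *MNAT1*, a subunit of the kinase complex of TFIIH, was higher by 0.84, *MLH3* by 0.78 and *GTF2H4* by 0.69. *PMS1* was lower by 0.83. Fanconi anemia and homologous recombination genes had 7 higher and 3 lower of 34 (29.4% called). The higher ones were led by *FANCE* (0.74) and *RAD51B* (0.69), and *FANCF* was at -0.61. Glutathione transferases and UDP-glucuronosyltransferases had 2 higher and 7 lower of 22 (40.9% called). DNA replication genes had 9 higher and 1 lower of 37 (27.0% called, near the 24.2% of detected names). *RFC3*, a clamp loader subunit, was at 0.78 and cyclin E1 (*CCNE1*) at 0.55.

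Among 35 genes of the BCL2 family, IAPs and death receptors, 6 were higher and 10 lower (45.7% called, against 24.2% of detected names). *BCL2*, the anti-apoptotic founder of its family, read 5.97, 6.43 and 6.32 in HTOXAR3 and 5.33, 5.39 and 5.38 in HT29, a difference of 0.88 ± 0.11 (adjusted p = 0.000287). *TNFSF10*, the death ligand TRAIL, was lower by 1.49. *CASP10* was higher by 1.10 on its brightest probe, but 2 other probes differed by -2.49 and -1.65, both called, so the gene's direction is not settled. *BIRC5*, which encodes survivin, differed by 0.02 ± 0.06 and was not called. In the TGF-beta and BMP list, 6 were higher and 8 lower of 32 (43.8% called). Among them were *BMP7*, above background in HTOXAR3 only (at least 2.84-fold higher), and the decoy receptor *BAMBI* (-2.30). *TGFBI*, a matrix protein induced by TGF-beta, read 14.25, 14.29 and 14.19 in HTOXAR3 and 13.06, 13.16 and 13.10 in HT29. *ERBB3* and *ERBB2*, receptors of the EGFR family, differed by -1.21 and -1.04 on the probes used. One further *ERBB3* probe was called in the opposite direction (0.53) and one further *ERBB2* probe differed by -0.02. *CCND1*, cyclin D1, was higher by 0.52 ± 0.06 and *AKT1* by 0.58 ± 0.09.

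NF-κB components and feedback targets had 7 higher and 4 lower of 33 (33.3% called, against 24.2% of detected names). The cytokine gene *IL1B* read 8.27, 8.30 and 8.56 in HTOXAR3 and 5.79, 5.90 and 5.74 in HT29, a difference of 2.56 ± 0.13 (adjusted p = 4e-08), and *TNF* was higher by 0.85. *CCL20*, a chemokine, and *NFKBIZ*, an atypical IκB protein, were lower by 1.83 and 1.04. The subunit gene *RELA* and the inhibitor gene *NFKBIA* differed by -0.10 ± 0.06 and -0.11 ± 0.09 and were not called. Heat shock proteins and co-chaperones had 7 higher and 3 lower of 30 (33.3% called). *HSPA1A* differed by 0.87 and *HSPA1B* by 0.76, near-identical genes that may share signal. *HMOX1*, which encodes the heme-degrading enzyme heme oxygenase, was higher by 0.98.

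The second question was which differences between the lines were also there without the combination. Of the 5023 called genes, 2969 (59.1%) were called in the same direction without drug, where 11.5% of all names were called (6.26% higher and 5.28% lower). After OXA, where 14.1% were called (7.14% higher and 6.98% lower), the count was 3767. In all 3 states the same direction was called for 2649 (52.7%), of which 1377 were higher and 1272 lower in HTOXAR3. All 22 genes of the plot of leading rises and falls are among them. A further 1112 were called after OXA and after the combination but not without drug, and 923 (18.4%) were called after the combination alone. For 749 of the latter, the difference had the same sign in both other states. The change of the difference, tested below, was called against untreated for 35 of these 923 and against OXA for 0. Of the 1112, it was called against untreated for 102. A call in some states only is thus not by itself a difference between the states. Of the names called without drug, 1190 were not called after the combination, 706 higher and 484 lower in HTOXAR3. Over 17462 names well above background in all 3 arrays of each group, the difference after the combination correlated across genes with that without drug at 0.822 and with that after OXA at 0.899, while over all 36203 names the values were 0.613 and 0.686. Genes are not independent replicates.

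The change of the difference was tested itself, as the difference after the combination minus the difference in another state. Against the untreated state, 0.856% of all names passed, and 235 of the called genes did. It was above 0 for 96 of them and below 0 for 139, beside 0.320% and 0.536% of all names. With scaling to the 75th percentile in place of quantile normalization, 111 of 211 were above 0, and without HT29 combination replicate 3 it was 94 of 178. Against the state after OXA, 0.135% of all names passed, and 36 of the called genes did, 6 above 0 and 30 below, beside 0.0276% and 0.108% of all names. These counts depend on single arrays, as given with the processing alternatives. Calls in opposite directions without drug and after the combination were made for 18 genes, 12 of them higher in HTOXAR3 without drug and lower after the combination.

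**Figure D3:**
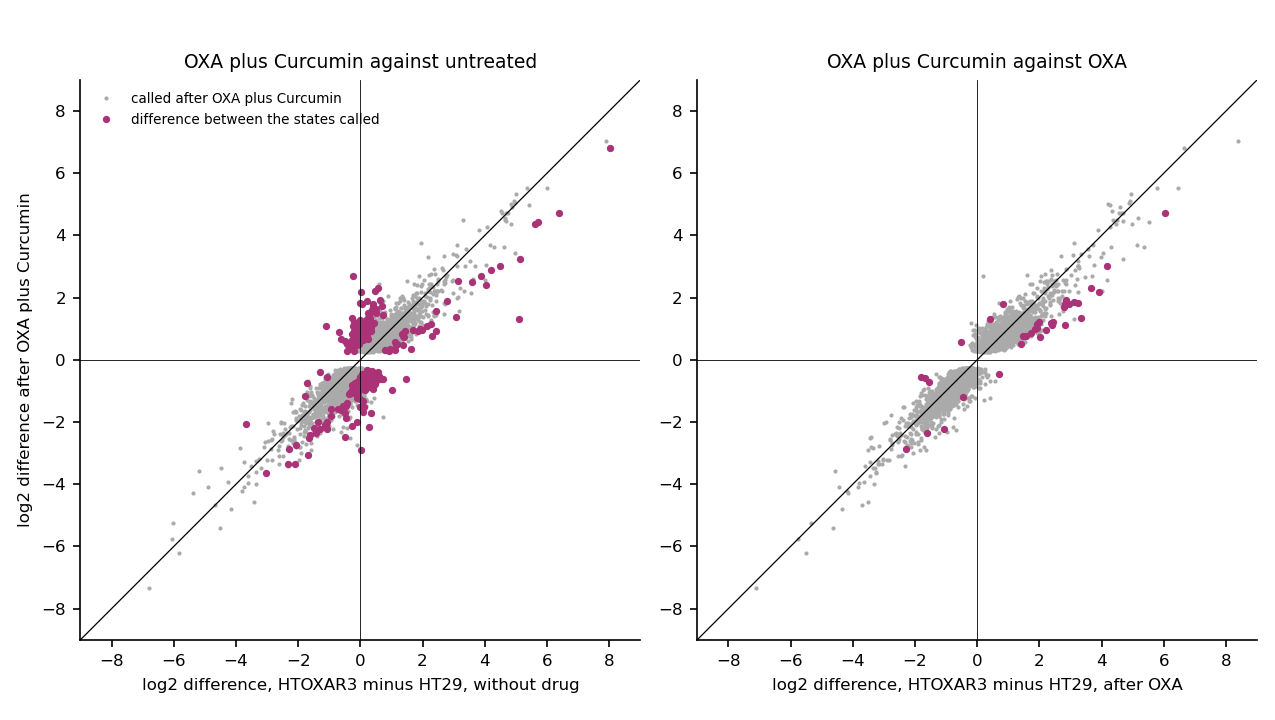
Log2 difference between the lines (HTOXAR3 minus HT29) after OXA plus Curcumin against that without drug (left) and that after OXA (right), 1 point per gene called after OXA plus Curcumin. Most of the 5023 points lie along the diagonal, and coloured points are the 235 (left) and 36 (right) whose change between the states was called.

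The promoters of *CXCL1*, *CXCL2* and *CXCL3* are printed because the difference between the lines changed in the same direction for these 3 neighbouring genes of chromosome 4. That of *CXCL8*, whose difference also changed in this direction (-1.84), is not printed. The windows are built as above, and capitals mark the κB motif, searched on both strands as GGGA, any 4 bases, then CC (on the other strand GG, any 4 bases, then TCCC).
CXCL1, chr4:73869143-73869442, plus strand: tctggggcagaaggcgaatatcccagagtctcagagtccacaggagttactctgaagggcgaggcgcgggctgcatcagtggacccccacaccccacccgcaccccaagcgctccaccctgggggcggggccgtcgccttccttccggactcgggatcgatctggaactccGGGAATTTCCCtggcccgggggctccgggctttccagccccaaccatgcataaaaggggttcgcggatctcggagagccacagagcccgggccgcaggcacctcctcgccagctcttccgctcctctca
CXCL2, chr4:74099146-74099445, minus strand: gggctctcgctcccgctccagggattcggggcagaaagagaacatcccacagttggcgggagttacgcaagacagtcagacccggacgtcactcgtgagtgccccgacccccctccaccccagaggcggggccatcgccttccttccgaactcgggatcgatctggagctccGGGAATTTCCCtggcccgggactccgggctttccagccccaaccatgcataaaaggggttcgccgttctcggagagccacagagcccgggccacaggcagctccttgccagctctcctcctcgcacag
CXCL3, chr4:74038640-74038939, minus strand: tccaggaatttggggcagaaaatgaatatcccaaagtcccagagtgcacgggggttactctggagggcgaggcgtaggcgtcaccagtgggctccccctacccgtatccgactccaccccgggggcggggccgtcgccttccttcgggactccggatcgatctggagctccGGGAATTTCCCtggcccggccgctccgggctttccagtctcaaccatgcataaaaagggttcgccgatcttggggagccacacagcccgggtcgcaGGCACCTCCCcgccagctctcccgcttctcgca
Each holds GGGAATTTCC, which overlaps its own reverse match GGAATTTCCC 1 base further on and starts 79, 78 and 79 bases before the start site. *CXCL3* holds another match, GGCACCTCCC, after the start site. The motif occurs in 25.6% of the 35116 promoters, and in 29 of the 45 chemokine and NF-κB genes listed that have a promoter in the table. A match is a description of the letters, and binding was not measured here.

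These chemokines were lower in HTOXAR3 after the combination. *CXCL1* read 11.66, 11.52 and 11.55 in HTOXAR3 and 12.06, 12.13 and 12.40 in HT29, a difference of -0.62 ± 0.13 (adjusted p = 0.0364). Without drug it was 12.04, 12.11 and 12.26 in HTOXAR3 and 10.48, 10.46 and 11.02 in HT29, higher by 1.48. The change between these states was -2.10 ± 0.19 (adjusted p = 0.000555). The call after the combination is narrow, since another *CXCL1* probe differed by -0.43 with an adjusted p of 0.878 and either scaling to the 75th percentile and the mean of all probes each ended it, as did leaving out any 1 of the 6 arrays. *CXCL2* read 10.37, 10.28 and 10.27 in HTOXAR3 and 11.06, 11.45 and 11.34 in HT29, a difference of -0.98 ± 0.13 (adjusted p = 0.000566) against 1.03 without drug, and another probe was called at -0.69. *CXCL3* read 7.64, 7.57 and 7.77 against 8.48, 8.61 and 8.73, a difference of -0.95 ± 0.16 (adjusted p = 0.00504), while without drug it differed by 0.41 and was not called. From untreated to the combination, *CXCL1* and *CXCL2* moved by 1.54 and 0.93 in HT29 and by -0.56 and -1.08 in HTOXAR3, while *CXCL3* moved by 1.45 in HT29 and by 0.10 in HTOXAR3. *CXCL8*, the gene of interleukin-8, kept a higher mean in HTOXAR3, with 9.40, 9.08 and 9.24 against 8.34, 8.54 and 8.48. Its difference of 0.79 ± 0.21 was not called (adjusted p = 0.134), though it was with the Benjamini-Hochberg adjustment (0.0121) or a normexp offset of 50 (0.0145), and the change from 2.63 without drug, -1.84, was. Against OXA alone, the change was not called for any of these 4 chemokines. The receptor gene *CXCR2* was not above background on any of the 6 arrays, and *CXCR1* differed by -0.12 ± 0.15. *CXCL17* went the other way and was higher by 2.05 ± 0.12, close to 2.09 without drug.

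Interferon-stimulated genes were counted in each state. After the combination, 3 of 45 were higher and 12 lower in HTOXAR3, while without drug 19 were higher and 5 lower. The 3 higher are 6.67% of the list, near the 6.95% of all names, and the 12 lower are 26.7% against 6.92%. The 19 and 5 without drug are 42.2% and 11.1%, against 6.26% and 5.28% of all names. The median difference was -0.09 after the combination, 0.20 after OXA and 0.45 without drug. From untreated to the combination, the median member moved by 0.44 in HT29 and by -0.01 in HTOXAR3. The change was called for 4 of the 45 members, beside 0.856% of all names, and was below 0 for each of the 4, which are *GBP2* (-1.35), *MX1* (-0.78), *ISG15* (-0.76) and *ISG20* (-0.69), named here after their values were seen. *IFITM2* and *IFI35* were lower by 1.02 and 1.00. Of these, *IFITM2* was called lower in all 3 states, and *IFI35* was not called without drug. *IFI6* and *IFIT5* were higher by 1.00 and 0.85, and both were called higher in all 3 states. In the antigen presentation list, *HLA-DMB* and *HLA-DMA* were lower by 1.26 and 0.91 and the peptide transporter *TAP1* was higher by 0.87. Metallothioneins, metal-binding proteins with metal regulators included in the list, had 0 of 14 members called by limma after the combination, against 7 lower without drug and 6 lower after OXA. At an unadjusted p below 0.05, 1 was higher and 5 lower, and with the Benjamini-Hochberg adjustment 1 and 4. The list's median was -0.10 after the combination and -0.52 without drug, and no member's change between these states was called.

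**Figure D4:**
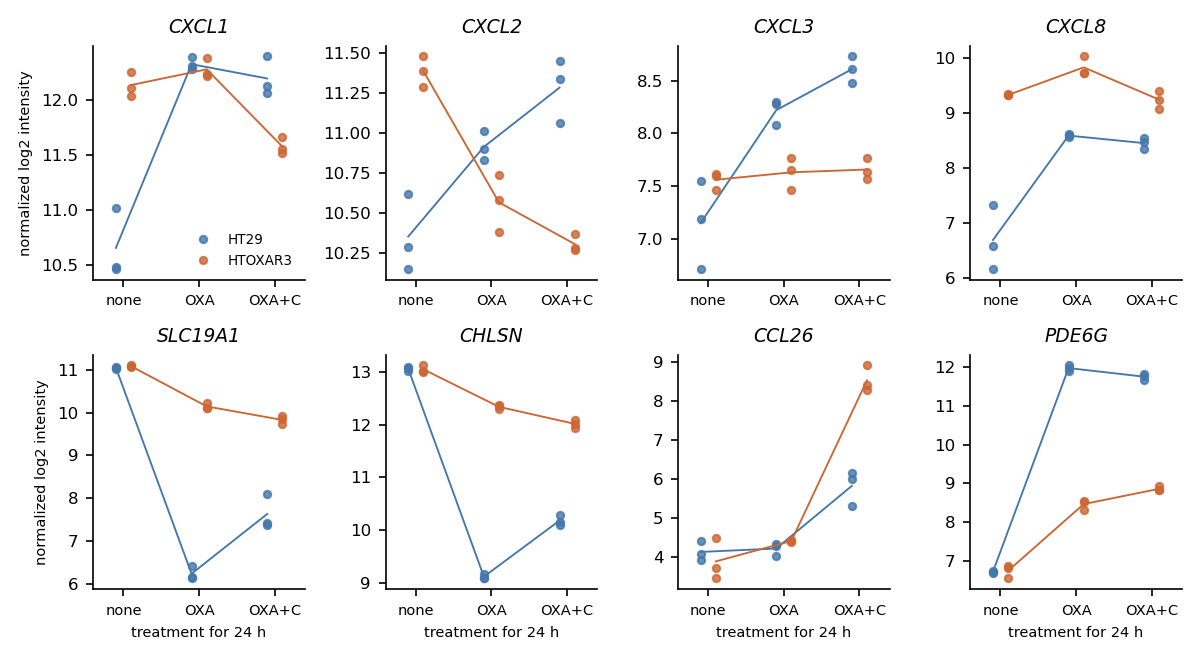
Normalized log2 intensity of 8 genes in HT29 and HTOXAR3 without drug, after OXA and after OXA plus Curcumin (OXA+C), with 3 arrays per group as points and lines through the group means. The lines cross for *CXCL1*, *CXCL2* and *CXCL3*, and *SLC19A1* and *CHLSN* are level without drug and lower in HT29 in both treated states.

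Several other genes changed strongly in the difference between the lines against the untreated state. Some differed little without drug and were lower in HT29 once treated. *SLC19A1*, the reduced folate carrier, read 9.84, 9.91 and 9.73 in HTOXAR3 after the combination and 7.41, 7.38 and 8.09 in HT29, a difference of 2.20 ± 0.15 (adjusted p = 7.71e-07) against 0.04 without drug and 3.91 after OXA, and another probe was called at 1.03 after the combination. *CHLSN* read 12.01, 12.10 and 11.95 against 10.10, 10.15 and 10.29, a difference of 1.84 against -0.01 without drug and 3.23 after OXA. *ARFRP1*, a small GTPase of the Golgi, *PIGQ*, of the synthesis of membrane anchors, and *SLC38A10*, an amino acid transporter, went the same way, with differences of 2.31, 2.22 and 1.34 after the combination and 3.65, 4.01 and 3.34 after OXA. Without drug they differed by 0.56, 0.48 and -0.27, and only *ARFRP1* was called there. Further probes of *PIGQ* (1.60) and *SLC38A10* (1.55) were called in the same direction, while 2 of *ARFRP1* (0.84 and 0.18) and one of *SLC38A10* (-0.98) were not called. Other genes were not called without drug and were higher in HT29 once treated. *PDE6G*, a phosphodiesterase subunit, read 8.82, 8.82 and 8.94 in HTOXAR3 and 11.82, 11.79 and 11.67 in HT29, a difference of -2.90 ± 0.09 against 0.02 without drug. *SPON2*, a secreted matrix protein, differed by -2.17 and *NHLRC4* by -1.70.

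*CCL26*, the eosinophil chemokine eotaxin-3, had the largest rise of the difference against the untreated state among called genes. It read 8.26, 8.40 and 8.90 in HTOXAR3 and 6.15, 6.00 and 5.29 in HT29, a difference of 2.71 ± 0.26 (adjusted p = 3.55e-05). Without drug and after OXA neither line had an array on which it was well above background. The fitted change against the untreated state was 2.95 (adjusted p = 0.00762), and that against OXA, 2.51, was not called (adjusted p = 0.0721). *PICSAR*, a long noncoding RNA, turned from -1.11 to 1.07. *CD96*, a receptor of lymphocytes, had a mean of 9.22 in HTOXAR3 without drug and of 5.19 after the combination, and was not well above background on any HT29 array of any state. It was at least 1.78-fold higher in HTOXAR3 after the combination, and that call was lost with the slide as a block and when any 1 of 5 of the 6 arrays was left out. Against OXA, *RGCC*, *KPNA7*, *RNF39* and *WNT11* changed by 1.26, 1.11, 1.10 and 0.97, of which *WNT11*, a Wnt ligand, was higher in HTOXAR3 by 1.81 after the combination and by 0.84 after OXA.

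Positions along the chromosomes, which the choice of arrays did not use, were examined after these values had been seen. Distance was measured from a probe to the outermost probe of its chromosome. Among the 96 called genes whose difference rose against the untreated state, 60.4% lay within 5 Mb of an end, with a median distance of 2.39 Mb. Among all names well above background on 3 arrays of a line it was 16.1%, among all called genes 16.4%, and among the 138 with a position whose difference fell 21.0%. With windows of 2 and 10 Mb the shares were 46.9% and 63.5%, against 8.48% and 25.6% of the detected names. Neighbours at an end are not independent of each other, and the pattern is given without a test. The 58 genes within 5 Mb included *SLC19A1* (1.13 Mb from the end), *CHLSN* (1.02 Mb), *ARFRP1* (0.63 Mb) and *PIGQ* (0.56 Mb). Relative to the mean of untreated HT29, their median value was -2.19, -2.11 and -2.13 on the HT29 arrays after OXA, and -1.56, -1.55 and -1.37 on those after OXA plus Curcumin. In HTOXAR3 it was 0.05, 0.11 and 0.04 without drug, -0.45, -0.37 and -0.35 after OXA and -0.53, -0.48 and -0.51 after OXA plus Curcumin. These 58 genes were chosen by their change between the states, so their levels are a description. The median of all 3293 detected names within 5 Mb of an end moved by only -0.07 in HT29 and -0.04 in HTOXAR3 under the combination.

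Whole chromosomes also differed in the share of called names. On chromosome 14, 35.9% of 627 detected names were called higher in HTOXAR3 and 5.26% lower, against 12.1% and 12.1% over all chromosomes. The median difference there was 0.25 after the combination, 0.26 without drug and 0.24 after OXA. Between 60 and 80 Mb of chromosome 14 (GRCh37), the medians of the 10 Mb windows were 0.48 and 0.44. *MNAT1*, *MLH3*, *RAD51B*, *AHSA1*, *POLE2* and *AKT1*, all higher in HTOXAR3, lie on this chromosome. Chromosome 11 showed the reverse, with 25.2% of 1153 names lower and 5.29% higher, as did chromosome 8 (21.5% lower) and chromosome 2 (19.6% lower). The lowest window median, -0.45, was at 220 to 230 Mb of chromosome 2, where 26 of 54 names were lower and 0 higher, and it was also -0.45 without drug and -0.46 after OXA. On chromosome 13, the window at 50 to 60 Mb had a median of 0.45 and that at 90 to 100 Mb of -0.37. Of the 280 windows with at least 20 names, 198 had medians within 0.1 of 0. Gene dosage was not measured in these samples.

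**Figure D5:**
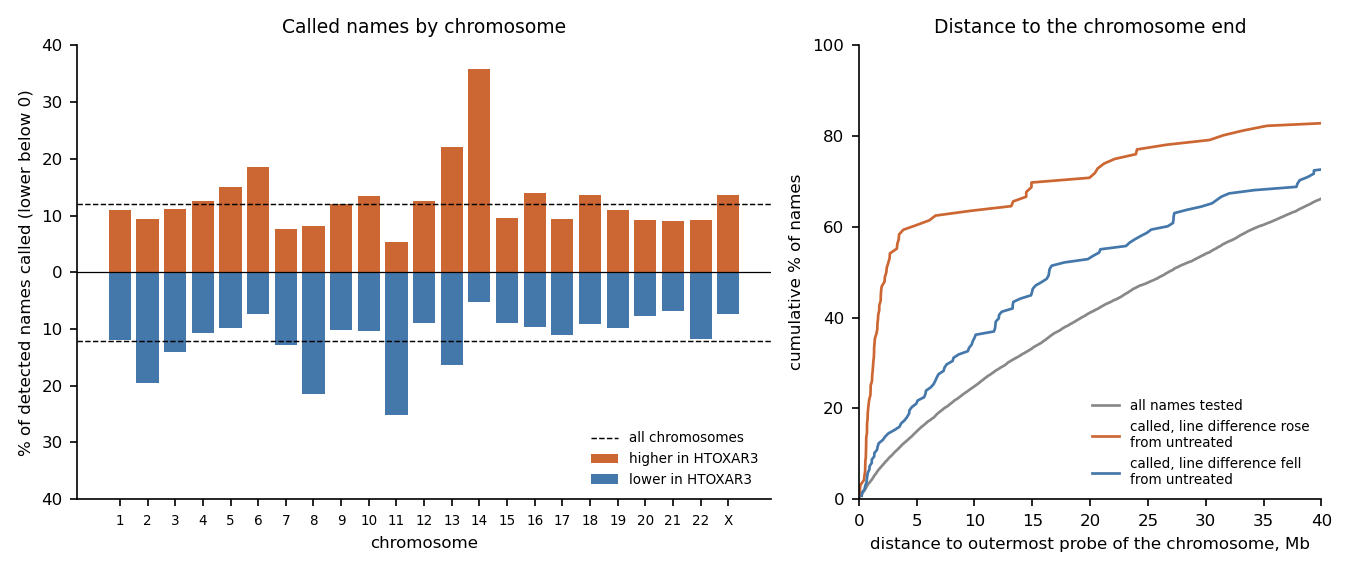
Left, names called higher (up) or lower (down) in HTOXAR3 after OXA plus Curcumin, as % of the detected names of each chromosome, with dashed lines at the 12.1% of all chromosomes. Right, cumulative % of names by distance to the outermost probe of their chromosome, where 60.4% of the 96 genes whose difference rose from the untreated state lie within 5 Mb.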

How the data were processed

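Total RNA of 6 groups with 3 replicates each had been labelled with Cy3 and hybridised to one-colour Agilent human v2 arrays. The deposited files are scanner output from Feature Extraction 10.7.3.1 with each spot's mean intensity and its median local background, not normalized between arrays, beside a processed intensity. A further deposited file gives the authors' log2 values after background correction and quantile normalization. Its lines carry no names, and it served for a single count.

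Background was corrected with normexp at an offset of 0 (none is stated), control spots were dropped, quantile normalization was applied, spots flagged as outliers were set to missing and replicate spots averaged. The brightest probe stood for a name. Of 36204 names, 21091 matched RefSeq by accession, 1231 by symbol and 276 by older symbol, and 13606 kept the array's name. A model with 6 group terms was fitted to all 18 arrays with limma 3.58.1 (lmFit, eBayes), run in R 4.3.3. Counts were tabulated with pandas 2.3.3 (Python 3.11.15) and plotted with matplotlib 3.10.9. Calls needed a Benjamini and Yekutieli adjusted p below 0.05 and a fold above 1.2. Where all arrays of one line were not well above background, "at least N-fold" compares the brighter line with the higher of the dim probe and the array's lowest signal well above background. On simulated arrays the fit recovered 23.9%, 59.7% and 77.3% of genes changed 1.5-, 2- and 4-fold and called 0 unchanged ones. The simulated noise was independent for each gene and array and took its spread from the fit, with no slide effect and no normalization step. It therefore does not give the error rate of the measured arrays. With 3 arrays per group, their number limits the precision.

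Genes were named by rule: the 12 largest rises and falls, the 6 largest bounds each way, up to 4 called members per list, the largest changes between states, and 12 listed genes of chemokine, NF-κB and survival signalling. One gene that this rule named is not reported here. The comparison, the 32 gene lists (832 genes, 820 with a probe) and the rule were chosen with earlier results of these data known. Alternatives were other offsets, scalings, probe summaries, filters, adjustments, blocks and single arrays left out. Probe positions are the array annotation's, on GRCh37.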

Additional observations from a re-analysis of the deposited data

Results flagged for a closer look

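The difference between the lines was not the same after OXA plus Curcumin as in another state, by the limma test of that change, for the following named genes. Values are log2 differences after the combination minus those in the other state.

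Against the untreated state, the chemokine genes changed by -2.10 (*CXCL1*), -2.01 (*CXCL2*), -1.35 (*CXCL3*) and -1.84 (*CXCL8*). The leading genes *DMKN*, *CACNG6*, *APOBEC3C* and *APOBEC3F* changed by -1.23, -1.24, -1.67 and -1.30. Matrix and adhesion genes *TGFBI*, *LAMC1*, *PLAU* and *TIMP2* changed by -1.13, -1.26, -0.52 and -0.67, so that higher levels in HTOXAR3 were closer to those of HT29 under the combination. The epithelial genes *LGALS4*, *VIL1* and *KLK8* changed by -0.65, -0.82 and -0.88, *ERBB2* by -0.75 and *ABCC6* by -1.20. Other falls were of *CD96* (-3.78), *PDE6G* (-2.92), *SPON2* (-2.46) and *NHLRC4* (-2.05). Rises were seen for *CCL26* (2.95), *PICSAR* (2.19), *SLC19A1* (2.16), *CHLSN* (1.85), *ARFRP1* (1.75), *PIGQ* (1.74), *SLC38A10* (1.60) and the chaperone gene *HSPA4L* (0.62).

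Against the state after OXA, falls were seen for *SLC38A10* (-2.00), *COL8A1* (-1.72), *SLC19A1* (-1.71), *CHLSN* (-1.39), *ARFRP1* (-1.34), *APOBEC3C* (-1.32) and *TGFBI* (-0.78). Rises were seen for *RGCC* (1.26), *KPNA7* (1.11), *RNF39* (1.10) and *WNT11* (0.97). *APOBEC3C*, *APOBEC3F*, *CD96* and *COL8A1* were not well above background on any HT29 array, and *CCL26* was well above background only on the arrays of OXA plus Curcumin, so their changes are fitted values set against dim probes. The doses of OXA also differed between the lines in both treated states.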

How the results depend on the processing

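The 5023 called genes became 4733 to 5883 under other offsets, scalings, probe means, the filter on dim names and the slide or replicate block, 7220 with the Benjamini-Hochberg adjustment and 5162 in the authors' table. They fell to 1607 when only the 6 arrays compared were fitted and to 1165 at a fold above 2, and ran from 3970 to 4405 with single arrays left out. The 2649 called in all 3 states fell to 654 in fits of only the arrays compared and 613 at a fold above 2, and ran from 2249 to 2561 with single arrays left out.

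Changes between the states were less stable. Against untreated, 235 became 485 at an offset of 50, 463 on names above background, 885 with Benjamini-Hochberg, 64 with only the arrays compared and 62 at a fold above 2. Single arrays left out gave 126 to 213, with shifts over 1.5-fold without HT29 untreated replicate 1 (146) or 2 (130), HT29 combination replicate 2 (133), or any HTOXAR3 array of the untreated (126, 136, 141) or combination group (128, 143, 133). Against OXA, 36 became 63 and 131 at offsets of 16 and 50, 99 on names above background, 227 with Benjamini-Hochberg, 4 with only the arrays compared and 15 at a fold above 2. Single arrays left out gave 7 to 44, with 7 without HTOXAR3 combination replicate 1 or 3 and under 24 for every other array of the 2 states except HT29 combination replicate 1.

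Same-numbered arrays correlated in their deviations at 0.341, -0.0856 and 0.184, and not every array correlated best with its own number. So few arrays cannot show whether the numbers pair them. Pairs of one slide correlated at 0.341, 0.085, 0.303 and 0.184, and pairs of different slides at -0.384 to -0.025. Slide 2 held 1 HTOXAR3 and 2 HT29 arrays, and slide 3 held 2 and 1. With the slide as a block the counts were 5137 (4755 shared), 2568, 183 and 26. With the replicate block the counts were 5018 (4796 shared), 2626, 204 and 26.

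Of 166 called named genes, 68 lost the call with only the arrays compared, 19 without some single array, 3 with the slide block (*S100A2*, *CYP51A1*, *CD96*) and 2 with the replicate block. Signs reversed for *NFKBIA* (0.02 and 0.009 under the 75th-percentile scalings), *BIRC5* (-0.02 without HTOXAR3 combination replicate 2, and at most 0.045 without another array) and *CASP10* (-0.69 as the mean of probes). They also reversed on single probes of *CASP10* (-2.49, -1.65), *TNFSF10* (0.046), *AUTS2* (0.22, 0.32), *PMS1* (0.029), *HLA-DPA1* (0.57), *SLC38A10* (-0.98), *GRAMD1B* (0.011) and *ERBB3* (0.53). The causes were not tested. Signal near background limits genes given as bounds.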
